A study of Homo sapiens with 3 samples.

Results

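The regions described here are ChIP-seq regions that stand beside long stretches of the genome in which no region was called. ChIP-seq (chromatin immunoprecipitation sequencing) recovers and sequences the DNA bound by a protein. The regions of all 3 lists of the study were pooled, and every stretch of at least 2 Mb between the centres of 2 consecutive regions of a chromosome was taken. There were 153 such stretches, which covered 526 Mb. Members were the regions with a centre within 1 Mb of either end of a stretch. They numbered 5602 of 59983 regions (9.34%): 1402 of 13382 CK2α regions, 1979 of 21819 Pol II regions with DMSO and 2221 of 24782 Pol II regions with TBBz. The members were chosen by the measured positions of the regions in all 3 lists, so where they lie and how many there are is a description. Their place in the lists was not part of the choice. The match between lists was not a criterion either, but it is computed from the same positions. Partners of a region at a stretch end become members together with it.

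All libraries came from LNCaP, an androgen-responsive human prostate carcinoma line, at passages 40 to 45. The cells were kept for 3 days in medium with 5% charcoal-stripped serum and then given 100 nM dihydrotestosterone (DHT), the hormone that activates the androgen receptor. The CK2α library was made from cells given DHT and no other agent, with an antibody to CK2α, which carries the catalytic activity of the kinase CK2. Its treatment label gives DHT for 2.5 hours and the protocol gives 90 min, and this is not settled here. Both Pol II libraries used an antibody against RNA polymerase II, from cells that had 25 μM of the vehicle DMSO or of the CK2 inhibitor TBBz for 2.5 hours, with DHT for the last 1.5 hours. The source label names TBBz for both, so the treatment label was used to tell them apart. There was 1 library per group, of 15466579 to 22345614 tags. No spread between replicates is therefore known, no test was made, and intervals are exact (Clopper-Pearson) 95% binomial intervals that cover counting error only. No control library is named in the peak calling command.

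As background, a centromere is the part of a chromosome that binds the spindle, and human centromeres are built from long arrays of alpha satellite, a tandem repeat. In the hg19 assembly, the build of these lists, most of each array is an unsequenced gap, and the sequenced edges of the gap hold satellite and duplicated sequence. Pol II transcribes genes, and chromatin around centromeres is mostly compacted and poor in genes. Gene-poor stretches are also found along the chromosome arms. No hg19 genome, repeat, duplication or gap annotation was used here, so no sequence is shown, no gene is assigned, and the share of members within satellite or duplicated sequence was not measured.

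Most of the stretches did not lie at a centromere. Only 20 of the 153 held the approximate position of their chromosome's centromere, known to the nearest Mb, and the other 133 lay elsewhere. The name "near centromeres" therefore fits a minority, and the members are described below in 2 classes. The first class has 1419 regions within 1 Mb of a stretch that holds a centromere, called centromere members here: 416 CK2α, 492 DMSO Pol II and 511 TBBz Pol II regions. The second has the 4183 regions beside the other stretches only: 986 CK2α, 1487 DMSO and 1710 TBBz regions. This division was made after the data were seen. The remaining 54381 regions served for comparison.

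The stretches that hold a centromere were alike in length. Of the 20, 16 measured between 3.0 and 3.3 Mb, and the median of all 20 was 3.17 Mb. How much of any stretch is unsequenced gap, in which no region can be called, was not measured. The lengths therefore do not show where CK2α or Pol II is absent. The longest were those of chromosome 1 (21.1 Mb), chromosome 9 (19.6 Mb), chromosome 16 (11.1 Mb) and chromosome 18 (4.03 Mb). Chromosomes 1, 9 and 16 are known for large blocks of heterochromatin beside the centromere. On 4 chromosomes (13, 14, 15 and 22) no region was called before the centromere, so they had no such stretch. The other 133 stretches had a median of 2.56 Mb, and 38 of them reached 3 Mb. Chromosome X had the most stretches of any chromosome (17), followed by chromosomes 2 and 4 with 16 each, while chromosomes 19 and 20 had only their centromere stretch.

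Of the 10 longest stretches 3 held a centromere. The longest lay on the long arm of chromosome Y, from chr Y position 28817513 to 58827349, a part of the chromosome that is known as largely heterochromatic. It was bounded by DMSO Pol II regions at places 16170 and 8038 of their list. The stretch of chromosome 1 ran from 121484866 to 142535877, that of chromosome 9 from 46844276 to 66454773 and that of chromosome 16 from 35281372 to 46386696. Chromosome 13 had stretches from 80915626 to 91038215 (10.1 Mb) and from 63640123 to 70955210 (7.32 Mb), and chromosome 16 had another from 58896381 to 66304419 (7.41 Mb). The rest of the 10 were on chromosome Y from 22737684 to 28784377, chromosome 4 from 133266319 to 139120900 and chromosome 6 from 64516134 to 69942901. Of the 21 regions at the ends of these 10 stretches, 16 stood in the second 50% of their list and 5 in the first. The earliest for their list were the TBBz region that ended the chromosome 1 stretch on the left, at place 718 of 24782, and the CK2α region that ended the chromosome 6 stretch on the right, at place 1917 of 13382. On chromosome 13 the ends of the 7.32 Mb stretch were TBBz regions at places 24483 and 23708.

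Regions crowded toward the edge of the centromere stretches. Leaving out the regions that mark the ends, the first 50 kb held 132 CK2α, 151 DMSO and 143 TBBz regions, or 66 CK2α, 75.5 DMSO and 71.5 TBBz regions per Mb. From 50 to 100 kb the densities were 12.5, 16.5 and 18 per Mb, and from 500 to 1000 kb they were 6.61, 8.28 and 8.55 per Mb. The last values resemble those of regions that are not members, at 5.41, 8.96 and 10.2 per Mb. Beside the other stretches, the first 50 kb held 8.65 CK2α, 14.3 DMSO and 14.5 TBBz regions per Mb, and from 100 to 250 kb it was 3.75, 4.94 and 5.73 per Mb. A stretch ends at a region by construction, and a region that belongs to a group brings its neighbours with it, so the first bin is raised by the rule in both classes. In all 3 lists the first bin was higher beside centromere stretches than beside the others, by counts that the same rule chose.

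**Figure D1:**
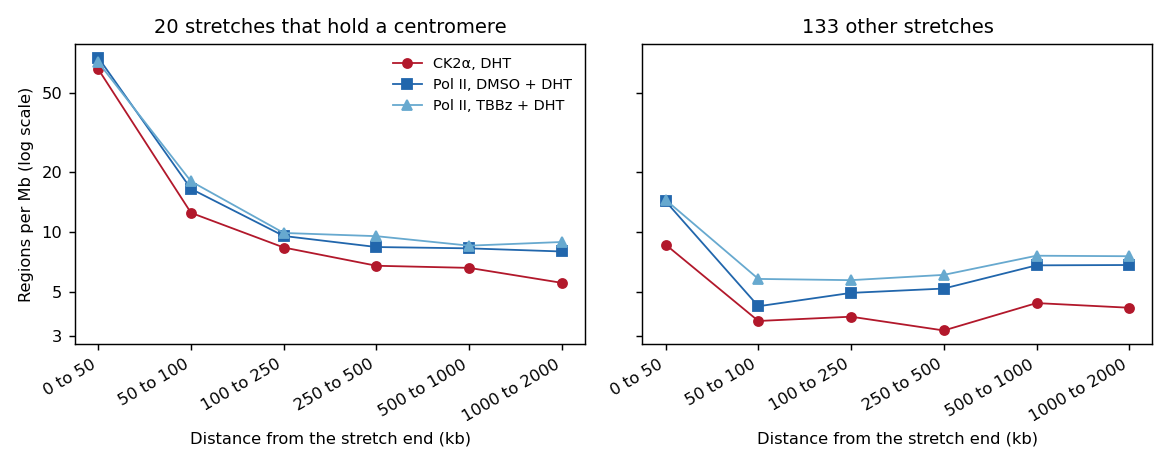
Regions per Mb (log scale) by distance from the end of a region-free stretch in kb, for the 3 lists, beside the 20 stretches that hold a centromere (left) and the 133 others (right), without the regions that mark the ends. Beside centromere stretches the 3 lists start at 66 to 75.5 regions per Mb and fall to 6.61 to 8.55 per Mb at 500 to 1000 kb.

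The crowding was unequal between chromosomes. Centromere members ranged from 12 on chromosome 6, with 4 of each list, to 143 on chromosome 10, with 46 CK2α, 49 DMSO and 48 TBBz regions. The 4 chromosomes with the most held 35.8% of all centromere members. The sides of a centromere also differed: chromosome 4 had 102 regions to the left of its stretch and 23 to the right, and chromosome Y had 35 and 86. On chromosome 9 the counts were 4 and 44, and there CK2α had no region on the left. The 100 kb windows with the most members were chrY:13800001-13900000 with 34 regions (10 CK2α, 11 DMSO, 13 TBBz), and chr16:46400001-46500000 and chrY:10000001-10100000 with 29 each. Windows at chr2:92300001-92400000 and chr4:49100001-49200000 held 26 each. Centromere members were 1419 of all 5602 members, and 8 of the 10 fullest windows were beside a centromere stretch. The exceptions, chr16:67200001-67300000 and chr2:220000001-220100000, held 23 regions each. Windows were added to the description after the values were seen.

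**Figure D2:**
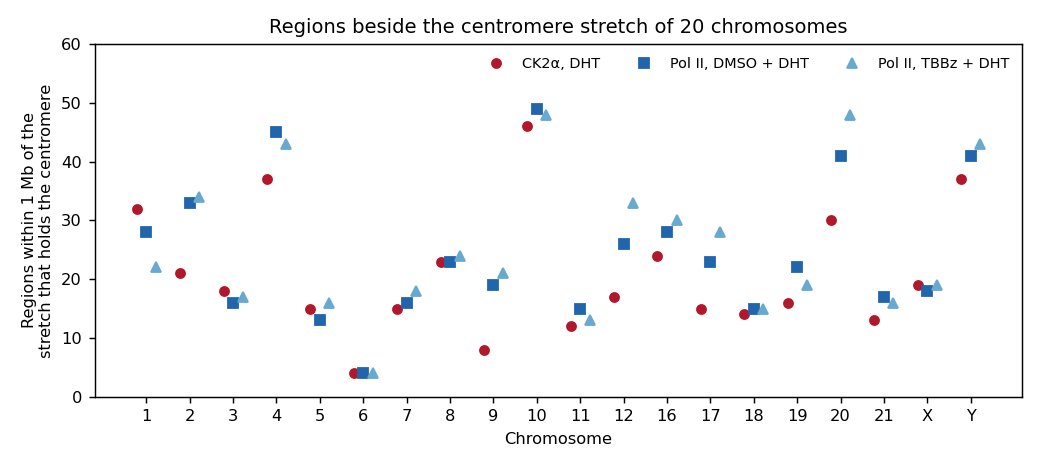
Number of regions of each list (vertical axis) within 1 Mb of the stretch that holds the centromere, for the 20 chromosomes that have one (horizontal axis). Counts run from 4 in each list on chromosome 6 to 46, 49 and 48 on chromosome 10, and CK2α outnumbers DMSO Pol II on 4 chromosomes.

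CK2α made up a larger part of the regions at centromeres. There were 0.846 CK2α regions for each DMSO Pol II region among centromere members (0.740 to 0.965), 0.663 beside the other stretches (0.611 to 0.719) and 0.604 among regions that are not members (0.590 to 0.618). These intervals take the lists as independent, which they are not, since many sites are in both. CK2α outnumbered DMSO Pol II on 4 of 20 chromosomes (1, 3, 5 and X) and equalled it on 2. On chromosome 1 the counts were 32 CK2α, 28 DMSO and 22 TBBz regions. Between the Pol II lists the ratio of TBBz to DMSO regions was 1.04 at centromeres (0.916 to 1.18), an interval that holds the 1.14 of the regions that are not members. Beside the other stretches it was 1.15 (1.07 to 1.23). The TBBz library was the deeper of the 2. The share of tags that lay in regions was 1.65% for CK2α, 6.79% for DMSO and 12.6% for TBBz. The filter on local signal removed 42856 of 56238 candidate CK2α regions, 25346 of 47165 with DMSO and 13517 of 38299 with TBBz. The part of these differences in the ratios was not tested.

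The lists coincided at centromeres. Among the 416 CK2α centromere members, 272 overlapped a DMSO Pol II region by at least 1 bp, or 65.4% (60.6 to 70.0%), against 36.8% in the whole CK2α list. Beside the other stretches it was 277 of 986, or 28.1% (25.3 to 31.0%), and among regions that are not members 36.6% (35.7 to 37.4%). With TBBz Pol II the shares were 63.2% at centromeres (58.4 to 67.9%) and 31.0% beside the other stretches (28.2 to 34.0%), against 36.0% in the whole list. The share of CK2α regions that overlapped both Pol II lists was 56.0% at centromeres (51.1 to 60.8%) and 21.9% beside other stretches, against 28.9% in the whole list. The intervals of the 2 classes do not meet in any of these comparisons. Neighbouring regions of 1 library share their source, so the intervals are too narrow for a statement about other cultures. The peak calling command names no control library, so the overlap here is between called regions. Whether both proteins bind at these sites, or at those with matching centres described below, was not tested.

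The same overlaps, counted as shares of the Pol II lists, were likewise more frequent at centromeres, which is no separate result. Of the 492 DMSO centromere members, 272 overlapped CK2α, or 55.3% (50.8 to 59.7%), against 22.6% in the whole DMSO list and 18.6% beside the other stretches (16.7 to 20.7%). Of the 511 TBBz centromere members 51.5% overlapped CK2α (47.0 to 55.9%), against 19.4% in the whole TBBz list and 17.9% beside the other stretches. Overlap between the Pol II lists differed less between the classes. It was 72.4% of the DMSO regions at centromeres (68.2 to 76.3%), 72.4% beside the other stretches (70.0 to 74.6%) and 74.0% among regions that are not members, against 73.8% in the whole list. Of the TBBz regions, 69.7% at centromeres (65.5 to 73.6%) and 62.9% beside other stretches (60.6 to 65.2%) overlapped DMSO Pol II, against 65.0% in the whole list. These intervals do not meet, but that of the centromere members meets that of the TBBz regions that are not members, at 65.1% (64.4 to 65.7%).

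The classes differed most in how exactly the centres matched. A DMSO Pol II centre lay within 1 kb of 80.3% of the CK2α centromere members (76.1 to 84.0%), close to the 78.3% of the whole list. Among these pairs the median distance between centres was 10 bp at centromeres (quartiles 2 and 115 bp). It was 268 bp beside the other stretches (quartiles 100 and 443 bp) and 222 bp among regions that are not members. Centres within 10 bp were found for 171 of the 416 CK2α centromere members, or 41.1% (36.3 to 46.0%), against 4.17% in the whole list. For 48 of them the centres were at the same base, against 94 of the 13382 regions of the whole CK2α list. Beside the other stretches 29 of 986 CK2α regions had such a match, or 2.94% (1.98 to 4.20%). Centromere members are 3.11% of the CK2α list but 30.6% of the 558 CK2α regions with a DMSO centre within 10 bp (26.8 to 34.7%), and 34.2% of the 526 with a TBBz centre that close. Those are 180 of the CK2α centromere members, or 43.3% (38.5 to 48.2%), against 3.93% in the whole list.

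The Pol II lists matched each other closely in all classes, and more closely at centromeres. The median distance between DMSO and TBBz centres within 1 kb was 7 bp at centromeres (quartiles 1 and 40 bp), 28 bp beside the other stretches and 25 bp among regions that are not members. A TBBz centre lay within 10 bp of 47.8% of the DMSO centromere members (43.3 to 52.3%), against 23.0% in the whole DMSO list and 21.2% beside other stretches (19.1 to 23.4%). At centromeres the median distance was thus 10 bp from CK2α to DMSO Pol II and 7 bp between the Pol II lists. The upper quartiles differed more, at 115 and 40 bp. Among regions that are not members the medians were 222 and 25 bp.

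**Figure D3:**
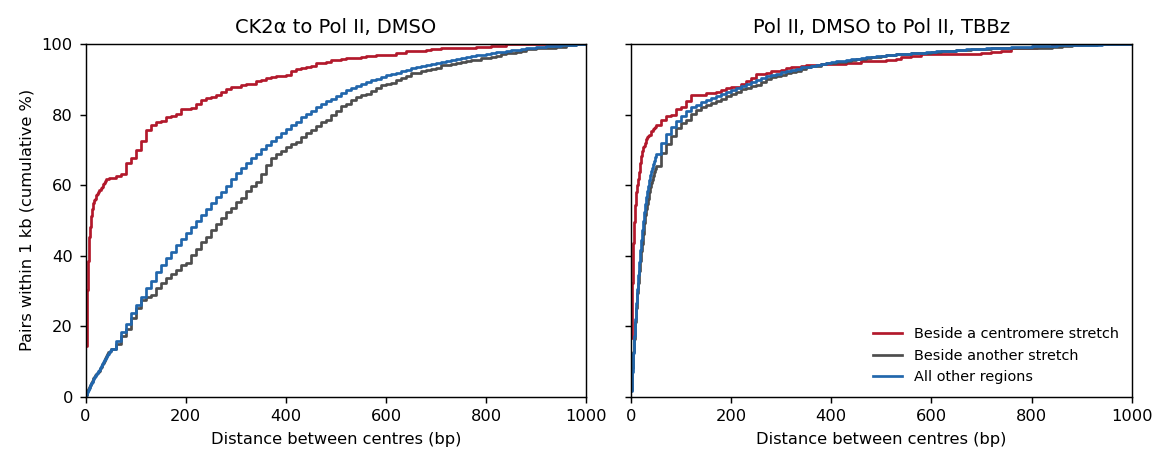
Cumulative share (%) of pairs of centres within 1 kb by their distance in bp, for CK2α to DMSO Pol II (left) and DMSO to TBBz Pol II (right), in centromere members, members beside other stretches and all other regions. On the left the curve of centromere members has its median at 10 bp, against 268 and 222 bp for the other classes; on the right the medians are 7, 28 and 25 bp.

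Beside centromere stretches overlap was highest in the 50 kb next to the stretch. Of the CK2α regions within 50 kb of the end of a centromere stretch, without the regions that mark the end, 111 of 132 overlapped DMSO Pol II, or 84.1% (76.7 to 89.9%). The rule keeps partners of the end regions in this bin, and without any region within 1 kb of an end it was 99 of 119, or 83.2% (75.2 to 89.4%). From 50 to 100 kb it was 16 of 25, or 64% (42.5 to 82.0%), and from 100 to 250 kb 35 of 49, or 71.4% (56.7 to 83.4%). These intervals meet that of the first 50 kb. From 250 to 500 kb it was 53.03% (40.3 to 65.4%), and from 500 to 1000 kb 50.8% (41.7 to 59.8%). From 1000 to 2000 kb, beyond the limit for centromere members, it was 42.9% (35.95 to 49.97%), in a bin that includes some members beside other stretches. The last interval holds the 36.8% of the whole list. Beside the other stretches the shares were 35.8% within 50 kb (26.8 to 45.7%), which became 13 of 57, or 22.8% (12.7 to 35.8%), without the regions within 1 kb of an end, 18.6% from 100 to 250 kb (12.3 to 26.4%) and 32.9% from 1000 to 2000 kb (29.7 to 36.3%). CK2α regions within 50 kb of a centromere stretch also stood early, at a median of 23.1% of the list, against 52.5% from 500 to 1000 kb. The DMSO Pol II regions in the same bins stood at 61.6% and 63.0% of their list.

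**Figure D4:**
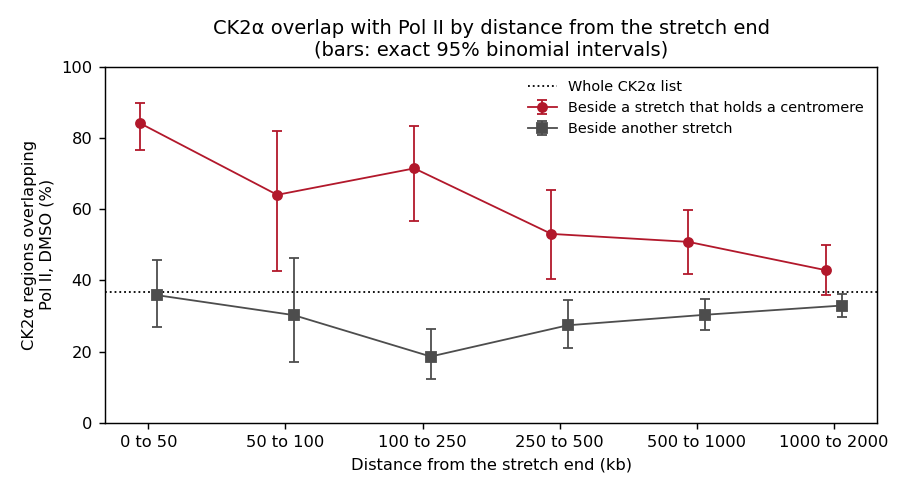
Share of CK2α regions that overlap DMSO Pol II (%) by distance from the end of a stretch in kb, beside centromere stretches and beside other stretches, with exact 95% binomial intervals; the dotted line is the whole CK2α list (36.8%). Beside centromere stretches the share is 84.1% within 50 kb and 42.9% at 1000 to 2000 kb, and beside the others it stays between 18.6% and 35.8%.

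The overlap at centromeres was found on most chromosomes. The share of CK2α centromere members that overlapped DMSO Pol II was above 36.8% on 19 of 20 chromosomes. It was highest on chromosome 11, with 11 of 12, followed by chromosome 12 with 15 of 17, chromosome 19 with 14 of 16, chromosome 7 with 13 of 15 and chromosome 2 with 18 of 21. The lowest were chromosome 18 with 4 of 14 (28.6%, 8.39 to 58.1%) and chromosome 1 with 13 of 32 (40.6%, 23.7 to 59.4%). Counts were small, and on some of the 19 chromosomes the interval held 36.8%. Among these were chromosome 1 and chromosome 20, with 14 of 30 (46.7%, 28.3 to 65.7%). Chromosome Y had 28 of 37, and chromosome X had 12 of 19. With each chromosome left out in turn the share of the class was between 64.3% and 67.4%.

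Centromere members were frequent in the first 10% of the CK2α list and stood late in the Pol II lists. Whether the order of a list follows the strength of its regions could not be tested, since the deposited score is the same for every region. Of the 416 CK2α centromere members 83 were within the first 10% of places, or 19.95% of them (16.2 to 24.1%), against 10.0% of the whole list. In the DMSO list it was 20 of 492, or 4.07% (2.5 to 6.21%), and in the TBBz list 15 of 511, or 2.94% (1.65 to 4.80%). The last 10% of the CK2α list held 42 of its 416 centromere members, or 10.1% (7.37 to 13.4%), against 10.0% of the whole list. The median places of centromere members were at 41.96% of the CK2α list, 63.8% of the DMSO list and 68.0% of the TBBz list. Members beside the other stretches were near the middle of all lists, at 53.5%, 53.4% and 53.4%. In each list 6.29 to 7.33% of them were in the first 10%.

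Centromere members made up 3.11% of the whole CK2α list, and among its first 10 regions they were 4 and among the first 1000 they were 71 (7.10%, 5.59 to 8.87%). They made up 2.25% of the whole DMSO list. Among its first 50 regions they were 4 (8%, 2.22 to 19.2%), among the first 100 they were 5 (5%, 1.64 to 11.3%), and among the first 1000 they were 12 (1.20%, 0.622 to 2.09%). Of the whole TBBz list they made up 2.06%. The first 100 TBBz regions held 0, for which the limit of 3 counts is 3% and the exact upper bound 3.62%, both above that share, and the first 1000 held 5 (0.5%, 0.163 to 1.16%). The leading TBBz centromere member was at place 317. Places in lists of different lengths show no change between libraries and are given for each list by itself.

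**Figure D5:**
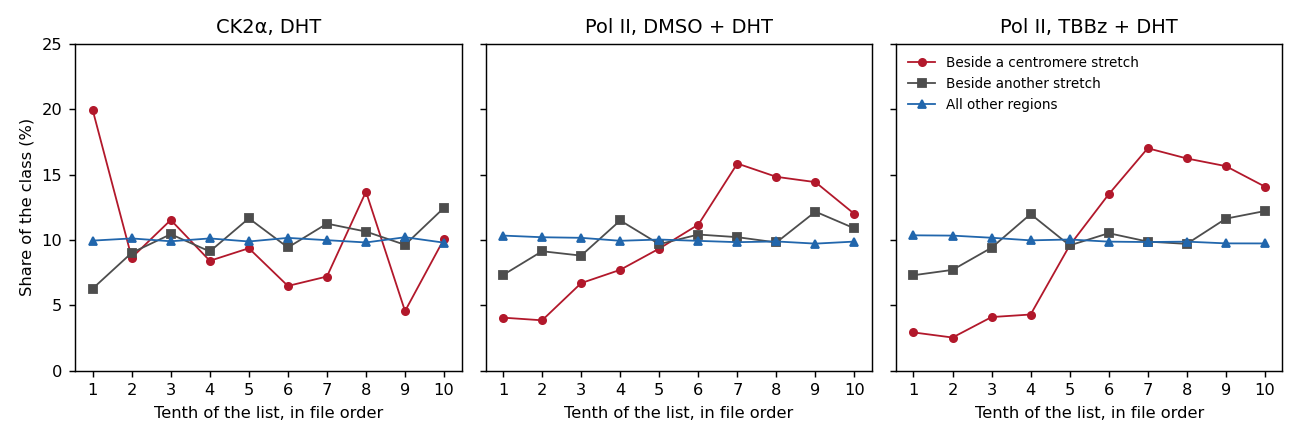
Share of each class of regions (%) in successive 10% parts of its list in file order, for CK2α, Pol II with DMSO and Pol II with TBBz. Of the CK2α centromere members 19.95% are in the first 10%, against 4.07% with DMSO and 2.94% with TBBz, while members beside other stretches stay between 6.29% and 7.33% there.

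Overlap at centromeres was higher in both 50% parts of the CK2α list. Among regions in its earlier 50%, 78.4% of centromere members overlapped DMSO Pol II (72.7 to 83.4%), against 38.1% of members beside other stretches and 44.7% of regions that are not members. In the second 50% it was 47.4% (39.8 to 55.1%), against 19.4% and 28.4%. In the second 50% of the TBBz list, where most of its centromere members stood, 53.2% of them overlapped CK2α (48.1 to 58.2%), against 9.86% beside other stretches and 10.1% of regions that are not members. Spearman's rho between the places of overlapping CK2α and DMSO regions was 0.791 at centromeres (272 pairs), 0.444 beside other stretches (277 pairs) and 0.532 in the rest (4380 pairs). These pairs are of single libraries and share neighbourhoods, so no p-value is given.

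Of the first 10 CK2α members 7 were at centromeres, against 416 of all 1402 CK2α members. A DMSO centre lay within 200 bp of 8 of the 10, and these 8 overlapped the DMSO region by at least 1 bp. Such an overlap was found for 36.8% of the whole CK2α list and 39.2% of all CK2α members. The first CK2α member was chr1:121484763-121484963 at place 4, at the left end of the chromosome 1 stretch. Its DMSO centre was 2 bp and its TBBz centre 3 bp away. That site was at place 9 of the DMSO list and 718 of the TBBz list. Next came chr20:26190024-26190224 at place 5, 128.4 kb from the stretch end, with a DMSO centre 2 bp and a TBBz centre 7 bp away, at places 43 and 2541 of their lists. A pair of CK2α regions at the left end of the chromosome 6 stretch, chr6:58778240-58778440 and chr6:58778910-58779110, stood at places 6 and 8. Their DMSO partners were 79 and 38 bp away, at places 22 and 30.

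The other CK2α centromere members among the first 10 were chr7:61969251-61969451 at place 11, chr20:26188941-26189141 at place 20 and chr19:27732044-27732244 at place 24. At chr7:61969251-61969451 all 3 lists had the same coordinates, at places 11, 61 and 4650 of the CK2α, DMSO and TBBz lists. The chromosome 19 region marked the right end of its stretch together with a TBBz region of the same coordinates at place 7734, and the DMSO centre was 4 bp away, at place 408. At the 6 centromere loci of these regions the first places ran from 4 to 24 in the CK2α list, from 9 to 548 in the DMSO list and from 718 to 8595 in the TBBz list, values that belong to each list by itself. The members beside other stretches that followed were chr17:48943365-48943565 at place 50, chr17:48944448-48944648 at place 71 and chr7:73246508-73246708 at place 83. At the first of these the DMSO and TBBz centres were 205 and 161 bp away, and both stood at place 12 of their lists.

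In the DMSO list 5 of the first 10 members were at centromeres, against 492 of all 1979 DMSO members. These 5 were chr1:121484765-121484965, chr6:58778161-58778361, chr6:58778948-58779148, chr20:26190026-26190226 and chr7:61969251-61969451. They are the sites of the leading CK2α members. The DMSO members beside other stretches were chr17:48943570-48943770 at place 12, chr2:20646773-20646973 at place 54, chr7:73245260-73245460 at place 90, chr2:122288423-122288623 at place 192 and chr10:38146637-38146837 at place 193. Their TBBz centres were 15 to 44 bp away, and their CK2α centres 97 to 394 bp. None of the first 10 TBBz members was at a centromere, against 511 of all 2221 TBBz members. These first 10 began with chr17:48943526-48943726 at place 12, chr5:32174290-32174490 at place 38, chr16:9185443-9185643 at place 75, chr6:76311553-76311753 at place 113 and chr2:20646799-20646999 at place 149. The rest were chr3:119813137-119813337, chr3:119814433-119814633, chr6:76458871-76459071, chr8:29940432-29940632 and chr1:100503578-100503778, at places 203 to 302. Of these 10 TBBz members, 9 had a DMSO centre 1 to 44 bp away, and the exception was 403 bp away. The nearest CK2α centres were 71 to 768 bp away.

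Regions were also joined into loci, runs of pooled regions whose consecutive centres are at most 1 kb apart. Of the 614 loci at centromeres 279 held all 3 lists, or 45.4% (41.4 to 49.5%), against 31.2% of the 1972 loci beside other stretches (29.2 to 33.3%) and 31.3% of the 25426 loci in the rest. Loci with both Pol II lists and no CK2α made up 14.8% at centromeres (12.1 to 17.9%), 26.8% beside other stretches and 29.6% in the rest. Loci with CK2α alone were 9.77%, 10.3% and 8.31%. The centromere loci with all lists and the earliest CK2α places included, beside those named above, chr18:18518881-18519088 at place 84 and chr10:42384516-42385287 at place 105.

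Centromere members stood in tight groups. Another region of the same list lay within 5 kb of 45.7% of the CK2α centromere members (40.8 to 50.6%), against 22.7% in the whole list. With DMSO it was 48.4%, against 24.7%, and with TBBz 47.7%, against 30.8%. Regions with no centre of another list within 1 kb made up 14.7% of the CK2α centromere members, against 18.3% of the whole list, 10.6% with DMSO, against 12.1%, and 16.6% with TBBz, against 21.5%. Peaks of 1 list are at least 500 bp apart by the calling. The median distance to the next region of the same list was 5.96 kb for CK2α, 5.73 kb for DMSO and 5.35 kb for TBBz at centromeres. Beside the other stretches it was 29.2, 23.6 and 20.4 kb. The largest loci were chr2:61763788-61766072 beside another stretch, with 10 regions in 2285 bp, and chr12:34846241-34848545 at a centromere, with 3 CK2α, 2 DMSO and 3 TBBz regions. Next were chr13:60970485-60971924, beside another stretch, and chr17:22251538-22253315 and chrY:10019277-10020762, at centromeres, with 7 regions each.

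All 3 lists had a centre within 1 kb of 20 of the 40 ends of centromere stretches (50%, 33.8 to 66.2%) and of 76 of the 266 ends of the others (28.6%, 23.2 to 34.4%), with intervals that meet narrowly. A single list was present at 14 of the 40 and 104 of the 266 ends. On chromosome 2 the left end of the centromere stretch was marked by all 3 lists with the same coordinates, chr2:92324101-92324301, at places 1315, 10546 and 14854 of the CK2α, DMSO and TBBz lists. On chromosome Y the left end was the CK2α region chrY:10037747-10037947, at place 150.

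Members beside the other stretches also differed in some measures from regions that are not members. Their CK2α regions overlapped DMSO Pol II less often (28.1% against 36.6%) and TBBz Pol II less often (31.0% against 35.5%). They had another CK2α region within 5 kb more often (26.0% against 21.7%). The intervals of each pair do not meet, but they cover counting error only. The Pol II lists did not share the last difference: a region of the same list lay within 5 kb for 23.7% against 24.1% with DMSO. With TBBz it was 28.8% against 30.5%. Fewer members beside other stretches stood in the first 10% of each list, at 6.29% against 9.96% for CK2α, 7.33% against 10.3% for DMSO and 7.31% against 10.4% for TBBz. The overlap with DMSO Pol II was 28.4% beside stretches of 2 to 3 Mb (25.1 to 31.8%) and 28.6% beside stretches of 3 Mb or more (23.4 to 34.3%). Without the centromere members the overlap of the whole CK2α list with DMSO Pol II went from 36.8% to 35.9%. At the limits of the rule, the last member was 999.2 kb from a stretch end and the nearest region that was not a member 1000.043 kb. Between 0.9 and 1 Mb from an end stood 131 CK2α, 205 DMSO and 218 TBBz members, and from 1 to 1.1 Mb stood 90, 161 and 186 regions outside the rule. The shortest stretch taken measured 2.001 Mb, and the longest not taken 1.989 Mb.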

How the data were processed

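Per the submitters' processing notes, the authors used Bowtie, HOMER and the build hg19, with no version named. Peaks were called, per the file headers, for each library by itself with HOMER (factor style, centred, peak size 200 bp, minimum distance 500 bp, false discovery rate 0.001, at least 4-fold over the surrounding 10 kb, at most 1 tag considered per bp), and the command names no control. The deposited score is 1 for every region and was not used. Deposited starts were raised by 1. Order in the file served as place.

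The members and lists were chosen with earlier results of these data known. Centromere positions (nearest Mb) were written by hand from general knowledge of hg19, not read from a file; a stretch counts as holding a centromere where it contains that position. Densities are per Mb outside the stretches, between the first and last region centre of a chromosome. Regions named are the first 10 members of each list, the ends of the 10 longest stretches, the 10 loci with all lists and the earliest CK2α places, and the 5 largest loci. Further ends, windows and chromosomes were chosen after their values were seen. The reference tables are of GRCh38.p14 and were not used. Scripts were tested on simulated data. Tables were computed with pandas 2.3.3 and NumPy 2.4.6 under Python 3.11.15, intervals with SciPy 1.17.1, and figures with Matplotlib 3.10.9.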

Additional observations from a re-analysis of the deposited data

How the results depend on the processing

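The number of members follows from the limits of the rule, and the cause of other changes was not tested. The shares of the CK2α, DMSO and TBBz lists that are members (10.5%, 9.07% and 8.96%) became 26.5%, 24.6% and 24.5% with stretches of at least 1 Mb, and 5.22%, 4.17% and 4.03% with stretches of at least 3 Mb. They were 6.09%, 5.06% and 5.07% within 0.5 Mb of an end and 17.8%, 16.3% and 15.97% within 2 Mb. With stretches from the 2 Pol II lists they were 11.8%, 10.4% and 10.1%, with the longest stretch of each chromosome 2.29%, 1.92% and 1.92%, and with the first 50% of each list 21.1%, 18.3% and 17.1%. With centromere stretches only they were 3.11%, 2.25% and 2.06%, and with the other stretches only 7.61%, 6.98% and 7.05%; these last 2 choices were made after seeing the data. CK2α was the list with the highest share in all of these settings.

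The share of CK2α members that overlapped DMSO Pol II (39.2%) was 36.1% with stretches of at least 1 Mb, 50.5% with at least 3 Mb, 42.5% within 0.5 Mb, 43.6% with the longest stretches and 31.8% in the first 50% of each list. It was 65.05% with centres within 500 bp, 29.9% with an overlap of at least 50%, 65.4% with centromere stretches only and 29.3% with the others only. Leaving out all regions within 1 kb of an end, also chosen after seeing the data, took the same share in the 50 kb next to a stretch from 84.1% to 83.2% at centromeres and from 35.8% to 22.8% beside the others. The share of DMSO members that overlapped TBBz Pol II (72.4%) was 79.5% in the first 50%, 80.8% with centres within 500 bp and 66.0% with an overlap of at least 50%. Leaving out chromosome Y moved none of the 5 shares beyond its counting interval. No paired analysis was possible because there is only a single library in every group. Depth was not equalised between libraries, so its part in where the lists end was not tested.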
